A study of Mus musculus with 12 samples.

Results

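The comparison described here set 3 arrays of PUER cells carrying an Hnrnpa0 shRNA against 3 arrays of PUER cells carrying a control vector, all harvested after 24 hours in 2 nM 4-hydroxytamoxifen (4-OHT). The 6 arrays were chosen by their labels, out of 12 in the series; the other 6 are the same vectors before 4-OHT (3 control, 3 shRNA). PUER is a mouse myeloid progenitor line that lacks its own PU.1 and carries a PU.1 protein fused to the ligand-binding domain of the estrogen receptor, so every group shares the PU.1 deletion, the fusion, growth in IL-3 and a GFP-marked retroviral vector. Cells of each vector were infected, sorted for GFP and expanded, and the design text describes 3 experiments run in parallel with separate clones of each vector, lettered A, B and C. The series title names Hnrnpa0 as a del(5q) gene, and the comparison asks what differs between the vectors once differentiation has been started. The labels name 1 Hnrnpa0 shRNA vector, whose hairpin sequence was not used here.

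4-OHT releases the PU.1 fusion into the nucleus. PU.1 is the ETS-family transcription factor that drives macrophage and granulocyte differentiation: it switches on macrophage genes and the Egr and Nab regulators, which oppose Gfi1, a repressor that favours neutrophils. Hnrnpa0 is an RNA-binding protein that binds AU-rich elements, the sequences in many cytokine and immediate early transcripts that set how long they last, and it is a known substrate of the kinase MK2 (Mapkapk2).

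The targeted transcript was lower in all 3 shRNA arrays. Levels are given as log2 of the processed spot signal less the 75th percentile of its array, so that 0 is that percentile, and a difference is the mean of the shRNA arrays less the mean of the control arrays on this scale. With the brighter of its 2 probes (chr13:57219687-57219746, mm7), Hnrnpa0 stood at 2.60, 2.63 and 2.73 in control A, B and C and at 0.56, 0.65 and 0.46 in shRNA A, B and C. The groups were far apart, by a difference of -2.10 (SE 0.18, n = 3 and 3, limma adjusted p = 0.00509), which leaves 23.3% of the control signal. A second probe, on the coding sequence, left 26.1% (difference -1.94). Hnrnpa0 had the smallest adjusted p of all 15056 genes tested. Before 4-OHT it stood at 3.11, 3.06 and 2.98 in control and at 1.93, 1.57 and 1.00 in shRNA arrays, a difference of -1.54 (limma adjusted p = 0.0127).

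The coding probe is shown because it lies over an RNA-recognition motif, and the probe of Slc4a7 because that sodium bicarbonate cotransporter gene, no target of the hairpin by its label, had the next largest measured fall. Both are printed 5′ to 3′ as the array design gives them; capitals mark bases within the stretch that encodes the conserved RNP1 motif of the Hnrnpa0 protein.
Hnrnpa0, chr13:57220223-57220282, mm7, minus strand: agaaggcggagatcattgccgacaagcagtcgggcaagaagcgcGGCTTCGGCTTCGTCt
Slc4a7, chr14:12552686-12552745, mm7, plus strand: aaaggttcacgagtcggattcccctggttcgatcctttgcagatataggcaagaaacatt
Slc4a7 stood at 2.45, 2.16 and 1.55 in control A, B and C and at 0.19, -0.01 and -0.13 in shRNA A, B and C, a difference of -2.04 (SE 0.33, limma adjusted p = 0.0119, 4.10-fold).

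The vectors share no slide after 4-OHT, and this touches every result below. Control A was on slide 1 with the 3 control arrays before 4-OHT; control B and C were on slide 2 with shRNA before A and B; the 3 shRNA arrays after 4-OHT were on slide 3 with shRNA before C. No slide therefore gives a value within itself. The 1 shRNA array before 4-OHT that sat on slide 3, which the comparison does not use, lay beyond both others of its group in the direction of the difference after 4-OHT in 83.4% of 2495 called genes, against 51.0% of 12462 genes not called. Control A, alone on slide 1, lay farther from the shRNA arrays than control B and C in 61.3% of called genes, against 49.2% of genes not called. For Slc4a7 the shRNA array before 4-OHT on slide 3 stood at -0.04, and the slide 2 arrays of its group at 1.26 and 1.13. For Gfi1, described below, that array stood at 5.09, and the others at 4.93 and 5.04, so it too lay beyond both in the direction of the difference. The 6 arrays correlated with each other at 0.986 to 0.996, had 51.5% to 55.7% of spots well above background and had 75th percentiles between 1556 and 2583 intensity units, highest in shRNA B and A. Saturated spots cannot follow that scale: 534 genes saturated on all 6 arrays had a median difference of -0.37 with no measurable level, so saturated genes are named as such below. All 68 called genes with a saturated spot on at least 1 of the 6 arrays were lower.

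**Figure D1:**
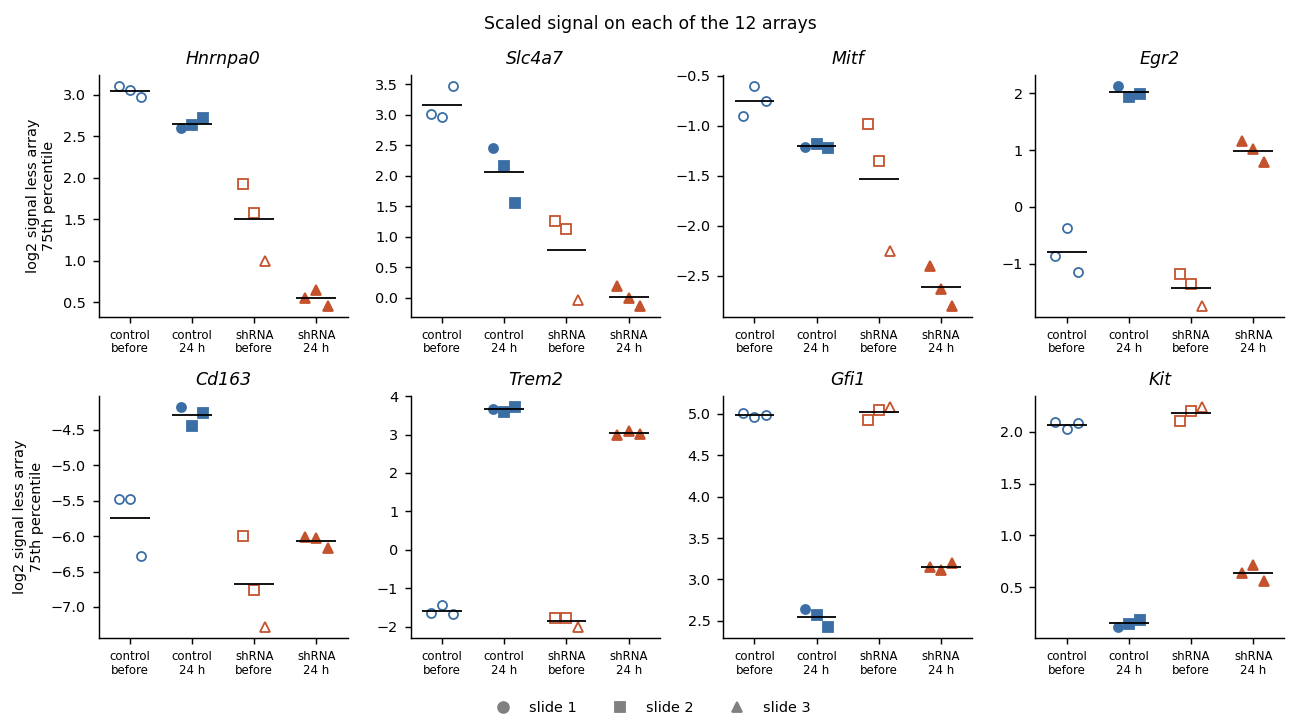
Scaled signal of 8 genes (log2 signal less the array's 75th percentile) on all 12 arrays; blue is control, orange is shRNA, open symbols are before and filled symbols 24 h after 4-OHT, the symbol shape gives the slide and black lines are group means. Hnrnpa0 fell from a mean near 2.65 in control to 0.55 in shRNA arrays after 4-OHT. For Slc4a7 and Mitf the shRNA array before 4-OHT on slide 3 lies with the shRNA arrays after 4-OHT. For Gfi1, Kit and Trem2 that array lies with its own group. Since 4-OHT itself lowered Gfi1 and Kit in both vectors, their place there cannot test for a shift on slide 3.

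Across the array 2513 of 15056 genes (16.7%) passed an adjusted p of 0.05: 1184 were higher (7.86%) and 1329 lower (8.83%) with the shRNA. Most differences were small. The median called rise was 0.40 and the median called fall -0.43, and 96 genes differed at least 2-fold, 22 of them higher and 74 lower. The median over all genes was -0.04. Of the called genes 2498 had no overlap between the 3 control and 3 shRNA arrays, as had 38.6% of all genes tested. The split between directions followed the scaling: 47.1% of calls were higher in the main analysis, 76.9% after median scaling, 35.3% after quantile normalization and 30.8% after normexp background correction. With slide as a random block no gene passed (0 called, 2615 at an unadjusted p under 0.05); Hnrnpa0 then had a limma adjusted p of 0.0525. With slide as a fixed block 1 of 14636 genes passed (0.00683%), Foxred2, at 1.62 against -0.16 without the block (named after its value was seen), and Hnrnpa0 stood at -1.38 (limma adjusted p = 0.149). That fit bridges slides 2 and 3 only through the shRNA arrays before 4-OHT, and control A, on slide 1, does not enter its difference. Its correction is shRNA before C, 1 array, less shRNA before A and B. Every fixed-block difference given below therefore carries the deviation of that 1 array. Without control A, B or C the count of calls was 1130, 308 or 2344, and without shRNA A, B or C it was 1354, 604 or 500. The 2513 genes kept their direction in each of the 12 fits that left out 1 array. This was nearly fixed in advance, since 2498 of them had groups without overlap and the arrays before 4-OHT do not enter the difference.

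**Figure D2:**
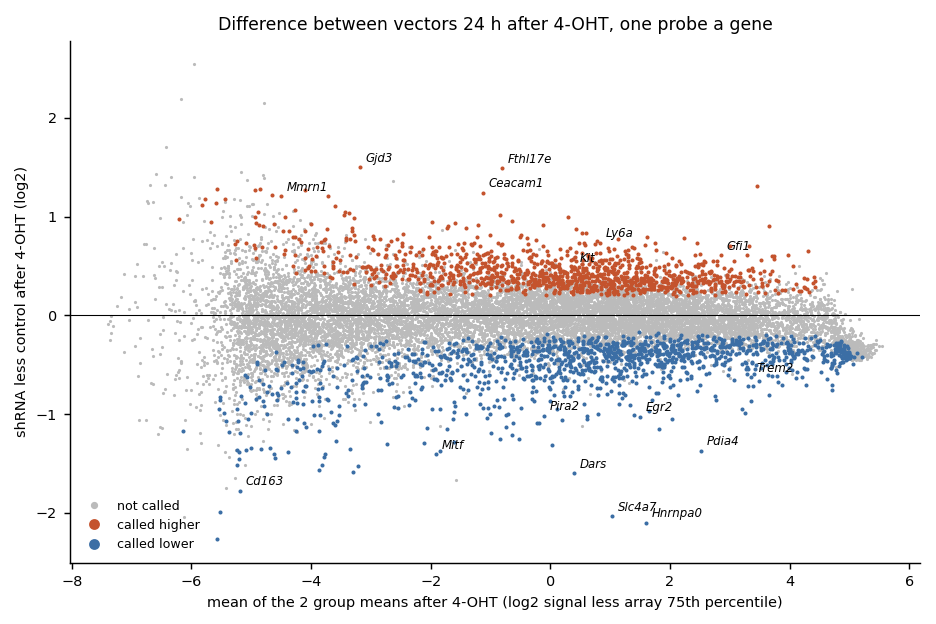
Difference between vectors after 4-OHT (log2, vertical) against the mean level of the gene (log2 signal less the array's 75th percentile, horizontal); each point is 1 of 15056 genes, with the 1184 called higher in orange and the 1329 called lower in blue. Hnrnpa0 (-2.10) and Slc4a7 (-2.04) lie lowest among bright genes, and the brightest genes bend below 0 where spots saturate.

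The 12 largest falls, with genes under background in shRNA cells ranked by their bound (so that Cd163, below, is not among them), had differences from -2.10 to -1.29. After Hnrnpa0 and Slc4a7 came Dars, the cytosolic aspartyl-tRNA synthetase, at -1.60 (limma adjusted p = 0.0220), and Stxbp3a, a syntaxin-binding protein, at -1.53. Mitf, the transcription factor of mast cells, osteoclasts and melanocytes, stood at -1.22, -1.18 and -1.22 in control and at -2.40, -2.64 and -2.81 in shRNA arrays, a difference of -1.41 (SE 0.26, limma adjusted p = 0.0140). The groups did not overlap; before 4-OHT the shRNA array on slide 3 stood at -2.26 and those on slide 2 at -0.99 and -1.35. The other members of the 12 largest falls were the odorant receptor gene Olfr295 (-1.51), the inward rectifier potassium channel Kcnj2 (-1.44), the carotenoid-cleaving enzyme Bco2 (-1.39), the endoplasmic reticulum chaperone Pdia4 (-1.37), the cyclin Ccne2 (-1.31), the muscle ubiquitin ligase Trim55 (-1.30) and Nrep (-1.29). Their sizes moved apart once slide was a fixed block: Bco2 (-1.18), Kcnj2 (-0.98) and Trim55 (-0.91) kept most of theirs, and Dars (-0.17), Stxbp3a (-0.14), Pdia4 (-0.28) and Ccne2 (-0.03) came near 0. Hnrnpa0, Slc4a7, Kcnj2, Pdia4 and Trim55 stayed called with any 1 of the 12 arrays left out; the calls of Mitf, Dars, Stxbp3a, Olfr295, Bco2, Ccne2 and Nrep were lost without control B, and their highest limma adjusted p over the 12 fits that left out 1 array ran from 0.0518 (Mitf) to 0.0808 (Olfr295).

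The rises of largest size were smaller and held few myeloid genes. Gjd3, a connexin, led at 1.502, but its shRNA arrays ranged from -3.01 to -1.76, and with slide as a fixed block its sign turned (-0.30). Fthl17e, a ferritin heavy chain-like gene, followed at 1.49 (limma adjusted p = 0.0139), and Sema6a, a semaphorin, at 1.26. Ceacam1, a cell adhesion receptor of granulocytes and other leukocytes, stood at -1.85, -1.83 and -1.55 in control and at -0.55, -0.63 and -0.33 in shRNA arrays, a difference of 1.24 (SE 0.19, limma adjusted p = 0.00970). Tmc7 (1.22), the platelet and endothelial protein gene Mmrn1 (1.21), the G-protein regulator Rgs8 (1.21), the homeobox gene Six4 (1.10), the vitamin E transfer protein Ttpa (1.03), the acute-phase protein Orm1 (1.02), Zfp652 (1.02) and the neural splicing regulator Srrm4 (1.00) completed the 12. Mmrn1 and Tmc7 were well above background on 1 control array only, and on all 3 shRNA arrays. With slide as a fixed block Mmrn1 (1.22), Rgs8 (1.20) and Ttpa (1.05) were as large, and Fthl17e (0.34), Zfp652 (0.30) and Srrm4 (0.24) were much smaller. Gjd3 was lost when any of 11 arrays was left out, and Fthl17e, Sema6a, Ttpa, Zfp652 and Srrm4 without control B (highest limma adjusted p over the 12 such fits 0.0510, 0.0639, 0.0522, 0.0580 and 0.0685).

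**Figure D3:**
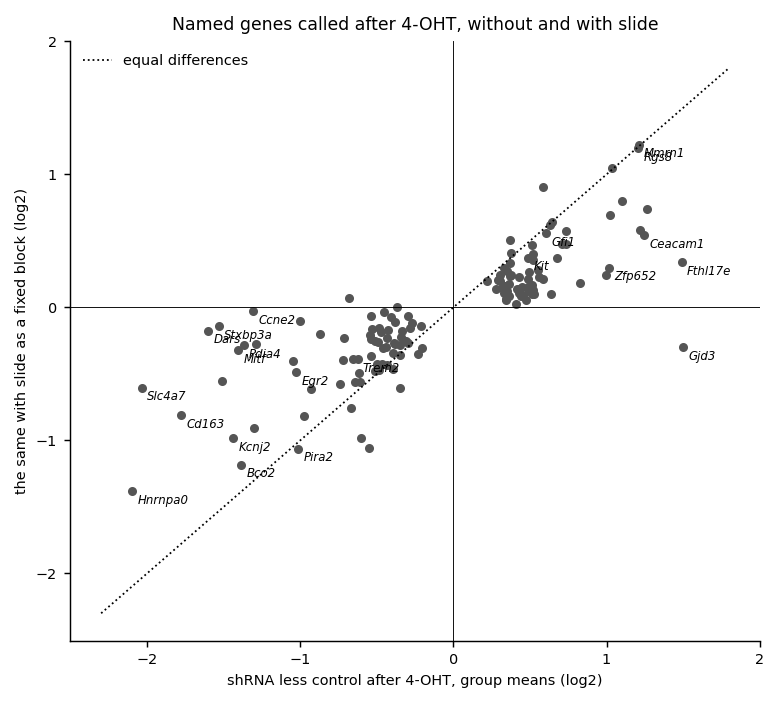
Difference between vectors after 4-OHT for named genes that passed the test (log2, horizontal) against the same difference with slide as a fixed block (log2, vertical); the dotted line marks equal values. Mmrn1, Rgs8, Pira2 and Bco2 lie near the line, Hnrnpa0 moves from -2.10 to -1.38, Dars and Ccne2 lie near 0 on the vertical axis, and Gjd3 changes sign.

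Macrophage genes were called lower more often than higher with the shRNA. Of 43 monocyte and macrophage genes listed, 37 were tested, of which 10 were called lower and 1 higher. The share lower, 10 of 37, stood above the 8.83% of all genes, and the median difference was -0.29 (-0.25 over the 30 members with no saturated spot), beside -0.04 over all genes. The median was -0.15 with quantile normalization and -0.11 with the trend on GC content and brightness removed, and 0 of the 11 calls were kept with slide as a random or a fixed block. Trem2, a lipid-sensing receptor of macrophages, stood at 3.66, 3.59 and 3.73 in control and at 3.002, 3.09 and 3.01 in shRNA arrays, a difference of -0.63 (SE 0.09, limma adjusted p = 0.00882). The groups were well apart, and before 4-OHT the difference was -0.28. Adgre4, an adhesion receptor of the F4/80 family, was lower by a difference of -0.97 (limma adjusted p = 0.0103), and Mmp12, the macrophage elastase, by -0.67. Cd163, the hemoglobin scavenger receptor, stood between -4.45 and -4.17 in control arrays and was not well above background on any shRNA array, which bounds it at at least 1.84-fold lower (limma adjusted p = 0.0122). Clec7a, the beta-glucan receptor (-0.35), Fcer1g, the signalling chain of Fc receptors (-0.35), and the cysteine protease Ctsb (-0.33, with control A left out as an outlier spot and its other probe of opposite sign) were called too. Msr1, the class A scavenger receptor, named after its value was seen, was at -0.93, and Cd9 (-0.47) and Cd14 (-0.40) were called on spots that were saturated on most arrays. The member called higher was Gpnmb (0.43), a glycoprotein of macrophages and osteoclasts, likewise named after its value was seen.

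Genes that define the lineage did not all take part. F4/80 (Adgre1) stood at -2.15, -2.04 and -2.16 in control and -2.54, -2.46 and -2.49 in shRNA arrays, without overlap, but missed the threshold (-0.38, limma adjusted p = 0.0548). The M-CSF receptor Csf1r (0.13, limma adjusted p = 0.656), Irf8 (0.06) and the integrin Itgam (-0.29, limma adjusted p = 0.170) were not called. Of the listed macrophage genes 36 had signal well above background on all 6 arrays, and Mrc1, Klf4, Aif1, C1qa and C1qc were among those with none on any. Without control A, B or C, 6, 3 or 9 of the 11 calls were kept, and without shRNA A, B or C 7, 6 or 7.

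Established PU.1 target genes divided. Of 29 tested, 7 were lower and 3 higher, beside 8.83% and 7.86% of all genes, with a median of -0.21 (-0.09 over 25 unsaturated members). Egr2, -1.03, is described below. The pattern-recognition receptor Tlr4 (-0.46) and the cytokine Il18 (-0.39) were lower, with Msr1, Cd14, Il1b (-0.72, near background) and Nab2. Il18 stood at 1.75, 1.66 and 1.70 in control and at 1.34, 1.33 and 1.27 in shRNA arrays, apart by a difference of -0.39 (SE 0.06, limma adjusted p = 0.0116). It rose with 4-OHT by 5.96 in control and by 5.70 in shRNA cells, so the gap between vectors was small beside the response. In the other direction stood Ncf1, a cytosolic subunit of the phagocyte oxidase, at 0.69, 0.65 and 0.86 in control and 1.30, 1.37 and 1.56 in shRNA arrays (0.67, SE 0.11, limma adjusted p = 0.0104), the G-CSF receptor Csf3r (0.33) and the exchange factor Vav1 (0.29, named after its value was seen). The Spi1 probe, which reads PU.1, did not pass (0.10, limma adjusted p = 0.497), and the Esr1 probe stood at -0.33 (limma adjusted p = 0.0612). Without control A, B or C, 6, 3 or 9 of the 10 calls were kept, and without shRNA A, B or C 7, 5 or 5.

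**Figure D4:**
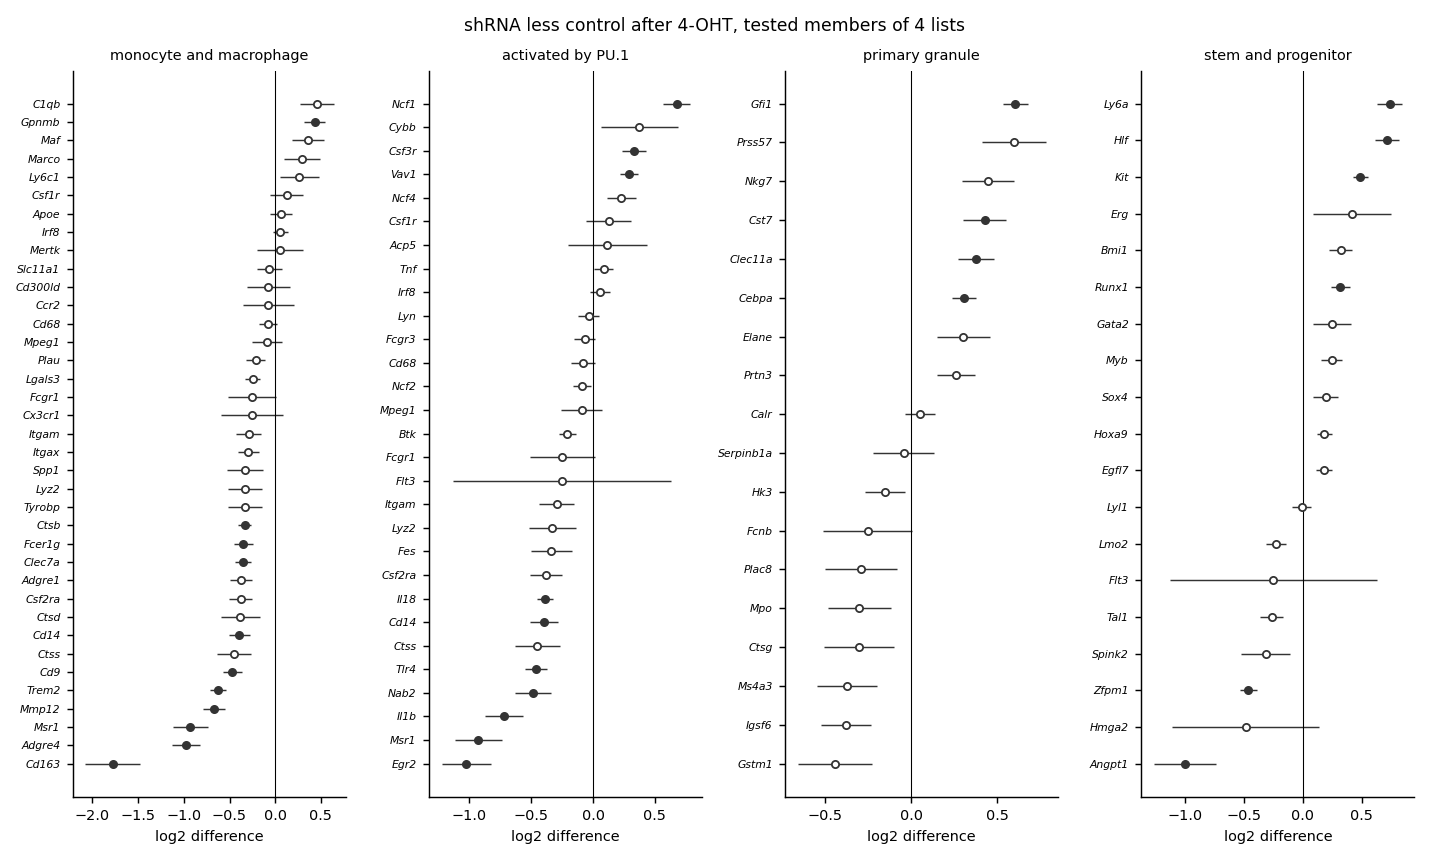
Difference between vectors after 4-OHT (log2, shRNA less control) for every tested member of 4 gene lists; bars are standard errors of the limma contrast and filled points passed an adjusted p of 0.05. Of the 37 macrophage genes 28 lie left of 0; Cd163 is drawn at its fitted difference, which is no measured size since its shRNA arrays are not above background, while the 4 filled points of the primary granule list lie right of 0.

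The called genes of the Egr/Nab side were lower and those of the Gfi1/C/EBP side higher. Of 15 tested genes of that switch 4 were lower and 3 higher, beside 8.83% and 7.86% of all genes, and 10 did not overlap between groups, beside 38.6% of all genes. Egr2, the zinc-finger factor of macrophage fate, stood at 2.14, 1.93 and 1.98 in control and at 1.16, 1.01 and 0.80 in shRNA arrays, about 2.04-fold lower (-1.03, SE 0.20, limma adjusted p = 0.0158). The corepressor Nab2 was lower at -0.49, close to the threshold (limma adjusted p = 0.0489), and the AP-1 subunit Jun was lower at -0.49 (limma adjusted p = 0.00970). Nab1 was lower on its brighter probe (-0.73, control A left out as an outlier spot), but its other probe has the opposite sign, and the mean of both gives 0.04. Gfi1 went the other way: it stood at 2.65, 2.57 and 2.42 in control and at 3.15, 3.11 and 3.20 in shRNA arrays, 1.52-fold higher (0.61, SE 0.07, limma adjusted p = 0.00739). The 3 shRNA arrays all lay above the 3 control arrays; before 4-OHT the difference was 0.03. 4-OHT lowered Gfi1 by a difference of -2.44 in control and -1.87 in shRNA cells. Cebpa, the C/EBP factor of granulocyte commitment, was higher by 0.31 (limma adjusted p = 0.0223), and Runx1 by 0.32 (named after its value was seen). Cebpb was saturated on all 6 arrays, so no difference could be measured, and Egr1, Cebpe and Klf4 gave no tested probe. With slide as a fixed block Gfi1 (0.56), Cebpa (0.24) and Jun (-0.47) kept most of their size, Egr2 stood at -0.49 and Nab2 at -0.15. Without control B, 3 of the 7 calls were kept, Egr2 (limma adjusted p up to 0.0531), Nab2 and Cebpa not among them.

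The lists of neutrophil granule and early granulocyte genes gave calls in the higher direction alone, Gfi1 and Cebpa of the switch above among them. The granule protein genes Elane, Mpo, Ltf, Camp, Ngp and Lcn2 were not among the calls. Of 18 primary granule and early granulocyte genes 4 were higher (Gfi1, Cebpa, the inhibitor Cst7 at 0.43 and the growth factor Clec11a at 0.38) and 0 lower, beside 7.86% and 8.83% of all genes. The median was 0.00 over the 18, and 0.38 over the 9 with no saturated spot. Neutrophil elastase Elane stood at 3.01, 2.84 and 2.42 in control and 3.07, 3.07 and 3.05 in shRNA arrays. The groups did not overlap, but the difference did not pass (0.30, limma adjusted p = 0.185). Myeloperoxidase (Mpo) was saturated on all 6 arrays. Of 21 secondary and tertiary granule genes Ceacam1 and Cd177, a neutrophil surface protein (0.63, limma adjusted p = 0.0166), were higher and 0 lower, while Ltf (-0.09), Camp (-0.25), Ngp (-0.40) and Lcn2 (0.39), the defining genes of that granule named after their values were seen, did not pass. Cst7 and Clec11a lost their call in most leave-one-out fits (limma adjusted p up to 0.135 and 0.108).

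Stem and progenitor genes were called in both directions. Of 19 tested 4 were higher and 2 lower, beside 7.86% and 8.83% of all genes, with a median of 0.18; with normexp background correction 2 were higher and 3 lower, and the median was -0.018. Kit, the stem cell factor receptor, stood at 0.11, 0.15 and 0.19 in control and at 0.63, 0.72 and 0.56 in shRNA arrays (0.49, SE 0.06, limma adjusted p = 0.00739). The groups were tight and did not overlap, and the difference before 4-OHT was 0.11. Ly6a, the Sca-1 antigen, was higher by 0.73 (0.56, 0.50 and 0.36 against 1.12, 1.19 and 1.31, limma adjusted p = 0.00940), and Hlf, a stem cell transcription factor, by 0.71 (limma adjusted p = 0.00934). These genes were lower after 4-OHT than before: the difference for Kit was -1.92 in control and -1.54 in shRNA cells, for Ly6a -1.92 and -1.47, and for Hlf -2.05 and -1.55. Zfpm1, the GATA cofactor FOG-1, was lower (-0.46, limma adjusted p = 0.0103), and so was Angpt1 (-0.999, but -0.10 with slide as a fixed block; named after its value was seen). Kit, Ly6a, Hlf and Zfpm1 stayed called with any 1 array left out, and stood at 0.38, 0.47, 0.48 and -0.43 with slide as a fixed block. Among 12 myeloid growth factor receptors Kit and Csf3r were higher and Il1rl1, the IL-33 receptor, lower (-0.55, limma adjusted p = 0.0414). Csf2ra was saturated on all 6 arrays.

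**Figure D5:**
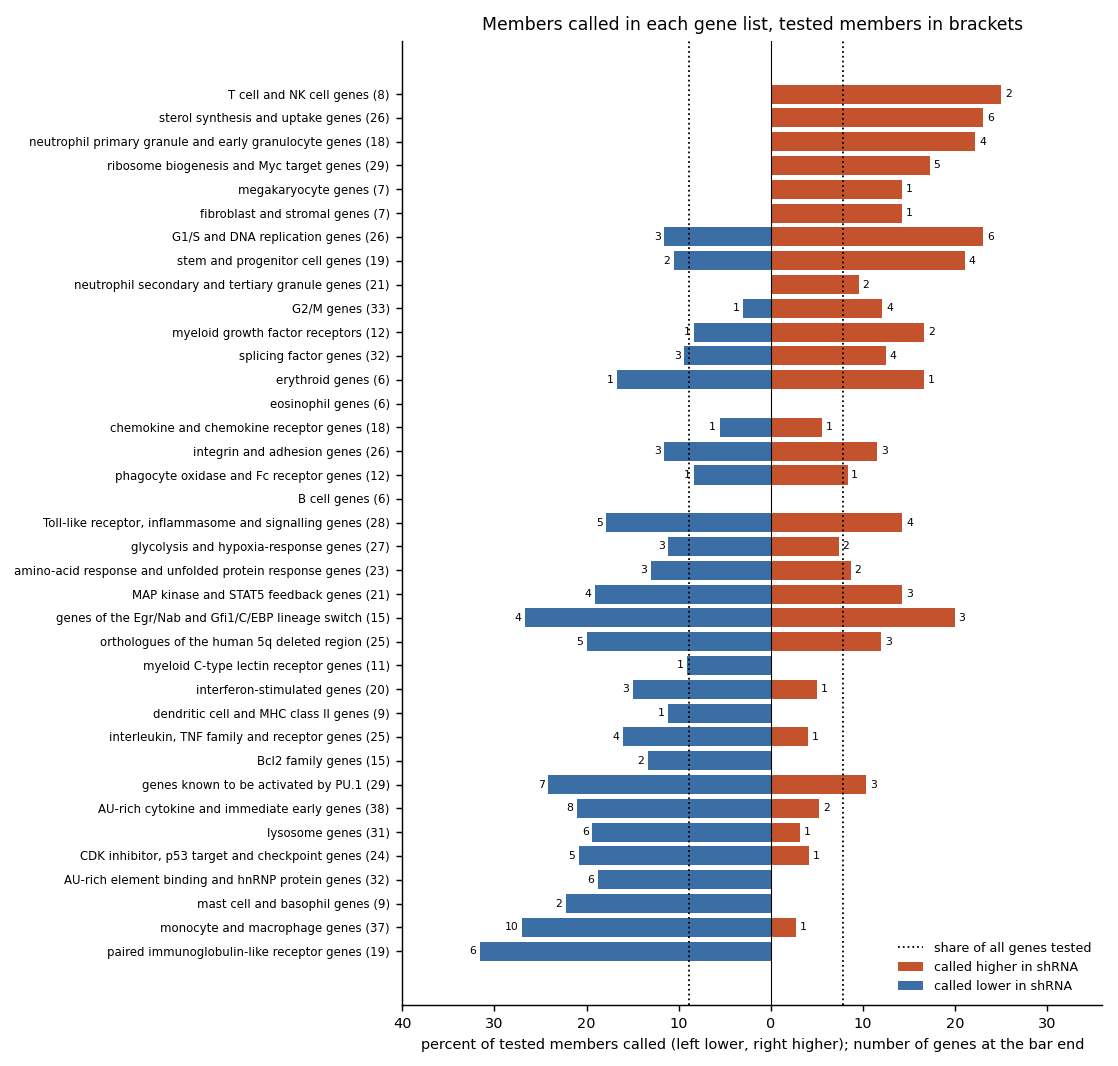
Percent of the tested members of each of 37 gene lists that were called lower (left) or higher (right) with the shRNA after 4-OHT; numbers at the bar ends are genes, numbers in brackets are tested members, and dotted lines mark the share of all 15056 genes (8.83% lower, 7.86% higher). The paired immunoglobulin-like receptors and the macrophage genes reach farthest to the left, and sterol synthesis is among the lists with calls on the right alone.

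Surface receptors of the paired immunoglobulin-like family, which carry activating or inhibitory signals in myeloid cells, were lower where they were called. Of 19 tested 6 were lower and 0 higher, beside 8.83% and 7.86% of all genes. A negative difference was found in 18 of the 19 (median -0.32, or -0.25 over 16 unsaturated members, beside -0.04 over all genes). Pira2 stood at 0.51, 0.32 and 0.39 in control and at -0.32, -0.93 and -0.59 in shRNA arrays (-1.02, SE 0.17, limma adjusted p = 0.0122). It had risen from near background by 6.88 in control and 6.32 in shRNA cells, and its difference was as large with slide as a fixed block (-1.06). Near-identical Pira and Pirb genes may share this probe. Sirpa, the receptor of the CD47 signal, was at -0.53, with 1 of its 2 other probes of opposite sign, Trem2 at -0.63 and Treml4 at -0.50. Cd200r1 (-0.38) and Lilrb4a (-0.21), inhibitory receptors, are named after their values were seen. Without control A, B or C, 3, 3 or 6 of these calls were kept, and without shRNA A, B or C 5, 3 or 3. Of 11 C-type lectin receptors Clec7a was lower and 0 higher, and of 12 oxidase and Fc receptor genes Ncf1 was higher and Fcer1g lower. Among Toll-like receptor and signalling genes 5 of 28 were lower and 4 higher, beside the same 8.83% and 7.86% of all genes. Over the 26 with no saturated spot 3 were lower. The flagellin receptor Tlr5 (-1.05) and Tlr4 were lower, and the RNA sensor Tlr7 (0.52) and Irak3, an inhibitor of Toll signalling (0.56, limma adjusted p = 0.0142), higher. Of these 9 calls 1 was kept without control B.

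Transcripts that carry AU-rich elements, the class Hnrnpa0 binds, gave calls in both directions. Of 38 tested cytokine and immediate early genes 8 were lower and 2 higher, beside 8.83% and 7.86% of all genes, with a median of -0.20 beside -0.04 over all genes; median scaling gave 4 lower and 2 higher. Dusp1, the phosphatase that ends p38 signalling, stood at 0.82, 0.51 and 0.35 in control and at 0.06, -0.11 and -0.18 in shRNA arrays (-0.64, SE 0.12, limma adjusted p = 0.0140). Ier5 (-0.54), the urokinase receptor Plaur (-0.40) and Jun were the others named by adjusted p, and the chemokine Ccl4 was lower by -0.66. The STAT feedback inhibitor Socs1 (-0.54, shRNA B left out as an outlier spot) and Zfp36 (-0.51) were lower and Socs2 (0.47) and the kinase Pim3 (0.37) higher, all named after their values were seen. Tnf, the best known AU-rich transcript, stood at 1.22, 1.19 and 1.13 in control and 1.30, 1.25 and 1.25 in shRNA arrays and did not pass (0.08, limma adjusted p = 0.443). Myc stood at -0.38 (limma adjusted p = 0.136) and Gadd45a at -0.42 (limma adjusted p = 0.0621). Dusp1, Jun, Ier5 and Plaur kept their call with any array left out, and had differences of -0.56, -0.47, -0.37 and -0.34 with slide as a fixed block. Without control B, 5 of the 10 calls were kept.

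Transcripts of proteins that bind these elements were lower where called in the main analysis, but not under every setting. With the trend on GC content and brightness removed 2 were higher and 3 lower (median -0.03), and with median scaling 1 was higher and 2 lower. Of 32 tested genes of AU-rich element binding and hnRNP proteins 6 were lower and 0 higher, beside 8.83% and 7.86% of all genes. Hnrnpa0, the target of the shRNA, was among the 6. Tial1, the TIAR protein, was at -0.74 on its brighter probe (limma adjusted p = 0.0129), with its other probe of opposite sign. Elavl1, the HuR protein that stabilizes such transcripts, was at -0.54, and Zfp36, tristetraprolin, which destabilizes them, at -0.51. Hnrnpa2b1 (-0.44) was saturated on 2 of 3 arrays of each group, and Hnrnph1 was at -0.30 (named after its value was seen). The median was -0.25 over 32 genes and -0.07 over the 20 unsaturated members, and with slide as a fixed block Elavl1 was at -0.06. Without control A or B 2 of the 6 calls were kept, and 2 or 3 without any 1 shRNA array. Mapkapk2, the kinase MK2, was higher, at 3.34, 3.35 and 3.32 in control and 3.61, 3.68 and 3.82 in shRNA arrays (0.37, SE 0.08, limma adjusted p = 0.0217). Among MAP kinase and STAT5 feedback genes 4 of 21 were lower and 3 higher: Spry2 (-0.72, its other probe of opposite sign) and the repressor Bcl6 (-0.49, named after its value was seen) with Dusp1 and Socs1 on the lower side, and Etv4 (0.64), Spred2 (0.48, other probe opposite) and Socs2 on the higher.

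Some genes of the p53 response were lower, and cell cycle genes were called in both directions. Of 24 inhibitors, p53 targets and checkpoint genes 5 were lower and 1, Mapkapk2, higher, beside 8.83% and 7.86% of all genes (median -0.19, with no saturated member), and 18 were not called. Phlda3, an Akt inhibitor induced by p53, stood at 4.30, 4.08 and 3.91 in control and at 3.50, 3.43 and 3.50 in shRNA arrays (-0.62, SE 0.10, limma adjusted p = 0.0105). The death genes Bbc3 (-0.54), Bax (-0.42) and Fas (-0.35) were lower too, as was Sesn2 (-0.41), on arrays that lacked control A and shRNA C and with its other probe of opposite sign. The inhibitor p27, Cdkn1b, stood at -0.23 and did not pass (limma adjusted p = 0.159). Without control B 1 of these 6 calls was kept. Of 15 Bcl2 family genes Bax and Bbc3 were lower and 0 higher. Of 26 G1/S and replication genes 6 were higher and 3 lower: E2f1 (0.37), Cdc45 (0.37), Ccne1 (0.35), Mcm2 (0.41, without shRNA A), Rrm2 (0.37, without control A) and Cdc6 (0.22, other probe opposite) against Ccne2, Tyms (-0.43) and E2f2 (-0.38), where Mcm2, Rrm2, Cdc6, Tyms and E2f2 are named after their values were seen. Of 33 G2/M genes 4 were higher, Bub1b (0.55, without shRNA A), Top2a (0.50), Cdk1 (0.49, named after its value was seen) and Dlgap5 (0.34), and Cenpe lower (-0.21, 1 of 2 other probes opposite); the arrays named here were left out as outlier spots. Without control B none of these 14 cycle calls was kept (0 and 0), and with slide as a fixed block Top2a was at 0.12 and Mcm2 at 0.03.

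Sterol synthesis and ribosome production gave calls in the higher direction alone. Of 26 sterol synthesis and uptake genes 6 were higher and 0 lower, beside 7.86% of all genes higher; the median was 0.01, or 0.17 over 21 unsaturated members. Nsdhl, an enzyme of late sterol synthesis, stood at -0.39, -0.44 and -0.61 in control and at 0.05, -0.0021 and 0.08 in shRNA arrays (0.52, SE 0.09, limma adjusted p = 0.0125). The enzymes Lss (0.51), Fdft1 (0.43), Dhcr7 (0.37) and Cyp51 (0.34) were higher, Fdft1 and Dhcr7 being named after their values were seen. When control B was left out 2 calls were kept, Nsdhl among them. Of 29 ribosome biogenesis and Myc target genes 5 were higher and 0 lower: the RNA polymerase I subunit Polr1b (0.63), Mybbp1a (0.52, limma adjusted p = 0.00934), Wdr43 (0.43, without control A), the helicase Ddx21 (0.42) and Gnl3 (0.33, named after its value was seen). Without control B, Mybbp1a alone kept its call. Splicing factors went both ways, 4 of 32 higher and 3 lower, beside 7.86% and 8.83% of all genes. Among the higher were Sf3b3 (0.51, both other probes opposite), Prpf8 (0.45) and U2af1 (0.28). Among the lower were Srsf5 (-0.87) and Clk4 (-0.68, 0.07 with slide as a fixed block, named after its value was seen).

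Secretory, glycolytic and lysosomal genes were called at shares not far from the 16.7% of all genes (8.83% lower and 7.86% higher), but the lysosomal calls were mostly lower. Of 23 amino-acid response and unfolded protein response genes 3 were lower, Pdia4, Sesn2 and Edem1 (-0.42, without control A), and 2 higher, Dnajb9 (0.44, both other probes opposite) among them. Of 27 glycolysis and hypoxia genes the glucose transporter Slc2a1 (-0.71, without control A) and the hexokinase Hk2 (-0.46) were among 3 lower, and the oxygen-sensing hydroxylases Egln1 (0.53) and Egln3 (0.30) were higher. Of 31 lysosome genes 1 was higher and 6 were lower, led by Mitf, a regulator of the organelle, with Ctsb and the channel Mcoln1 (-0.35), both without control A and with an opposite second probe, Ctsl, saturated on all 6 arrays, Lamp2 (-0.32) and Lgmn (-0.31), these last named after their values were seen. Without control B 0 of the 7 lysosome calls and 0 of the 5 glycolysis calls were kept.

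Cytokine, chemokine and interferon genes were called at shares not far from the 16.7% of all genes (8.83% lower and 7.86% higher). Of 25 interleukin and TNF family genes 4 were lower, with Il13ra1, a receptor chain of IL-4 and IL-13, at 0.43, 0.36 and 0.20 in control and -0.25, -0.30 and -0.30 in shRNA arrays (-0.61, SE 0.07, limma adjusted p = 0.00739), and Tnfsf13b, the B cell factor BAFF, was higher (0.51, other probe opposite). Of 18 chemokine genes Ccl4 was lower and the atypical receptor Ccrl2 higher (0.58). Of 20 interferon-stimulated genes Bst2 (-0.34), Igtp (-0.34) and Parp14 (-0.23) were lower and Ifit2 higher (0.35), all lost without control B. Of 26 adhesion genes 3 were lower, among them the integrin Itgav (-0.37, and 0.00 with slide as a fixed block) and the tetraspanin Cd82 (-0.30), and 3 higher, among them P-selectin, Selp (0.33). Over the 22 adhesion genes with no saturated spot 2 were lower. Of 25 orthologues of the human 5q deleted region 5 were lower and 3 higher, beside 8.83% and 7.86% of all genes. Among the lower were Hnrnpa0, the target of the shRNA, Dusp1, Etf1 (-0.29) and the kinase Csnk1a1 (-0.27, 1 of 4 other probes opposite). Brd8 (0.49, 2 of 3 other probes opposite), Reep5 (0.36) and Ddx41 (0.30) were higher. Csnk1a1, Reep5 and Ddx41 are named after their values were seen.

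Of 122 marker genes of other cell types on the array 57 had no signal above background on any of the 6 arrays and 41 had it on all 6, and fewer cells of a type cannot be told apart here from less RNA per cell. The calls in these lists stand beside 8.83% lower and 7.86% higher among all genes. Of 18 mast cell and basophil genes 9 were tested and 8 had no signal above background on any of the 6 arrays, Cpa3, Cma1 and the tryptases Tpsab1 and Tpsb2 among them; Mitf and Slc18a2 (-0.60) were lower, and the summed level of the tested genes, relative to the 75th percentile, ran from 1.14 to 1.32 in control and from 0.95 to 1.03 in shRNA arrays. Erythroid genes gave Tfrc, the transferrin receptor, higher (0.45) and Car1 lower (-0.51), with Gata1 and Alas2 dark and sums of 9.20 to 9.72 against 12.3 to 13.3. Of 8 tested T and NK cell genes Cd8b1 (0.34) and Klrb1c (at least 1.32-fold, not well above background on any control array) were higher, with Cd3g, Cd247 and Cd8a dark and sums of 2.48 to 2.65 against 3.06 to 3.38. B cell genes, with Cd79a, Ms4a1 and Pax5 dark, and eosinophil genes gave 0 calls among 6 tested each. Among dendritic cell and MHC class II genes 1 of 9, H2-DMb1 (-0.41), was lower, with H2-Aa, H2-Ab1 and Ciita dark and sums of 6.76 to 7.76 against 5.58 to 5.73. Selp among 7 megakaryocyte genes and Col1a2 (0.83) among 7 fibroblast genes were higher, with Pf4, Gp9, Col1a1 and Col3a1 dark. The part of these markers in the other results was not tested.

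The same contrast before 4-OHT gave far fewer calls. Before 4-OHT 57 genes (0.379%) passed, 48 of which passed after 4-OHT as well. No gene passed the test of the difference between the vector effects after and before 4-OHT (0 called, 790 at an unadjusted p under 0.05, smallest limma adjusted p 0.281), so no gene was shown to differ between vectors in 1 condition and not in the other. Of the 2513 called genes 2408 (95.8%) had the same sign before 4-OHT, beside 77.1% of all genes, and 2320 were smaller before. Slides are shared across the contrasts, so this is not a count over independent hybridisations. For Gfi1 the vectors differed by 0.61 after and 0.03 before (difference 0.57, SE 0.10, limma adjusted p = 0.332). For Kit the difference was 0.38 (SE 0.09), for Trem2 -0.35 (SE 0.12) and for Hnrnpa0 itself -0.55 (SE 0.26, limma adjusted p = 0.943). Csf1r went the other way, at 0.86 before and 0.13 after 4-OHT.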

How the data were processed

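RNA of 12 PUER samples was labelled with Cy3 and hybridised to Agilent one-colour mouse arrays of 60-base probes. The intensities were deposited as the scanner output of Agilent Feature Extraction 9.5, per the submitters' processing notes, in which the processed signal is already background-corrected, per the file headers. The intensities in the authors' deposited value table lay within 0.497% of those signals. Taken as log2 less the 75th percentile of the array, they served as an alternative. No columns were left unmapped. Probe positions are those of the file headers (mm7).

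Here log2 of the processed signal less each array's 75th percentile was used over 41174 non-control probes; outlier spots were left out. Symbols came from the files, updated through RefSeq's mouse gene table (GRCm38.p6). A gene was represented by its probe of highest mean, well above background on at least 3 of 12 arrays and not flagged as an outlier on at least 2 of the 3 arrays in every group. limma 3.58.1 (R 4.3.3) fitted 4 group means to the 12 arrays, with Benjamini-Hochberg adjustment over 15056 genes and a threshold of 0.05. The number of arrays, 3 a group, limits the precision. The p-values rest on the spread within the 4 groups, between clones run in parallel and, in groups on more than 1 slide, between slides. In the main fit they do not allow for the vectors lying on different slides after 4-OHT. On simulated data of 15056 genes for this comparison, 47 of 100 changes of 0.5 and 78 of 100 changes of 1 (log2) were recovered, with 8 false calls. The simulated arrays had independent noise and no slide effect, so these counts do not cover errors that slides may bring.

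The members and the 37 gene lists were chosen with earlier results of these data known. Genes were named by rule: the 12 largest rises and falls, bounds in place of folds under background, among called genes whose arrays do not overlap, up to 4 called members of each list by adjusted p, and 28 key genes; others are marked in the text. A fold against a group under background is a bound: the mean of the brighter group against the mean, over arrays, of the higher of the lowest signal well above background and the probe's own. Alternatives were background correction, scaling, filter, probe choice, slide, replicate letter and leaving out arrays.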

Additional observations from a re-analysis of the deposited data

How the results depend on the processing

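Of the 148 genes of the naming rule and its additions that passed the test, 35 stayed called with each of the 12 arrays left out in turn. Leaving out 1 array gave 308 to 3016 called genes, 137 to 1459 higher, 171 to 1557 lower, 34 to 123 at least 2-fold apart, and 0 to 1 in the test of the vector difference after against before 4-OHT. The count of calls was 1268 (540 higher, 728 lower) with the mean of all probes of a gene, 1267 (293 lower) with median scaling, 358 (155 higher, 203 lower, 60 at least 2-fold) with no filter on dim probes and 1109 (548 higher, 561 lower) with only the 6 arrays after 4-OHT. Higher calls numbered 538 with normexp, which left 41 at least 2-fold apart, and 599 with quantile normalization; 63 were at least 2-fold apart among genes well above background on all 6 arrays. With slide as a fixed block 1 gene was called (1 higher, 0 lower, 1 at least 2-fold), 2 genes passed the test of the difference after against before 4-OHT, and Hnrnpa0 stood at -1.38; as a random block 0 were called (0 higher, 0 lower, 0 at least 2-fold) and Hnrnpa0 stood at -1.81. Among the named genes that passed the test, signs turned with slide as a fixed block for Gjd3 (-0.30), Itgav (0.0042) and Clk4 (0.071), with the mean of all probes for Nab1 (0.041), Cd8b1 (-0.12), Cenpe (0.058), Sesn2 (0.15), Ctsb (1.23), Mcoln1 (0.83) and Spred2 (-0.026), and with normexp for Klrb1c (-0.27); the cause was not tested. Removing each array's trend with the GC content and brightness of the probes, a step chosen after seeing the data, gave 2736 calls. Same-lettered arrays of the vectors after 4-OHT correlated in their deviations from the group means at 0.305 (A), 0.053 (B) and 0.124 (C). Arrays of the vectors with different letters correlated at -0.268 to 0.160. The main fit did not take the letters to pair samples. With the letter as a replicate block 2759 genes were called, and Hnrnpa0 stood at -2.10. Saturated spots on 895 tested genes limit what the brightest genes can show.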
